A study of Phaseolus vulgaris and Phaseolus lunatus with 12 samples.

Results

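RNA sequencing gave the transcript levels of every annotated gene in leaves of common bean (*Phaseolus vulgaris*; the cultivar was California Red Kidney) that had been left clean or had carried the spider mite *Tetranychus urticae* for 24 h. The comparison uses 6 of the 12 libraries of the series, 3 from clean leaves (control) and 3 from infested leaves, and every gene of the *P. vulgaris* count table. The other 6 libraries come from lima bean, with which the study contrasts common bean, and enter no comparison here. Growth had lasted 3 weeks in chambers at 23 °C, where light was on for 16 h and off for 8 h. The first true leaf was sampled. Leaves of both groups were detached, so the control carries the detachment as well, and the infested ones received 50 adult female mites per leaflet. The mites were of the London strain and had been reared on common bean, the same host species. Whether the libraries are from different plants is not stated in the labels, and p-values here therefore reflect only the spread between libraries, which may be technical.

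*T. urticae* feeds by piercing leaf cells and sucking out their contents. Plants answer such damage in large part through jasmonate, a hormone made from linolenic acid: lipases release the acid from membranes, lipoxygenases oxygenate it in the chloroplast, allene oxide enzymes and a reductase of the old yellow enzyme group convert the product, and beta-oxidation shortens it to jasmonic acid. JAZ proteins, which carry the ZIM (TIFY) motif, repress jasmonate responses and are themselves induced by the hormone. Downstream, leaves make inhibitors of herbivore proteases, enzymes that attack chitin and glucan, and specialized metabolites built by cytochrome P450s, glycosyltransferases and oxygenases.

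The table holds 29324 genes. A product name was deposited for 1382 of them and a protein family, in the spelling of the Pfam domain database, for 10537, so most genes are described by family or have no description. Total counts ran from 17264823 to 19343807 per library. After the filter on low counts 19360 genes were tested. Of the 9964 genes left out, 5851 had no count in any library, 642 had counts in infested leaves only and 630 in control leaves only. Genes of the photosynthesis list took 0.541% to 0.845% of the counts in each library. Of its 22 tested genes 13 are of the ferredoxin-type family Fer2. No tested gene carries the families chosen to mark leaves, of chlorophyll-binding proteins and the Rubisco small subunit, so the share is no check on leaf identity. Other tissues were not checked either, because no gene of the table carries a family chosen to mark root nodules, seeds or pollen. The libraries are of whole leaves, where fewer cells of a type and less RNA per cell cannot be told apart.

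More genes were called higher than lower in infested leaves, in a ratio that depended on the fit. Levels are CPM, counts scaled to a common library size with TMM adjustment, given ± SD over the 3 libraries of a group (n = 3), and log2 fold changes are infested minus control ± SE. Genes counted as changed, or called, are those whose Benjamini-Hochberg adjusted p from the quasi-likelihood test of edgeR was under 0.05. Of 19360 genes, 189 (0.976%) were called, 181 higher (0.935%) and 8 lower (0.0413%). DESeq2 called 390 higher and 65 lower. The rises were also the larger changes. Among them 27 were over 16-fold, 25 were 8 to 16-fold, 27 were 4 to 8-fold, 52 were 2 to 4-fold and 50 were under 2-fold, with a median log2 fold change of 1.70 (also 1.70 with the 6 genes at 0 control counts set to their lower bound). The 8 falls had a median of −0.49, and 1 of them reached 2-fold. The median over all genes tested was −0.0028, so the scaling left the table centred. Before adjustment, 1221 genes higher and 821 lower had a p below 0.05, the called genes included. At any p, 518 genes were at least 2-fold higher and 146 at least 2-fold lower (383 and 60 with a mean of 1 CPM or more), and ranges did not overlap in 17% of genes tested, 9.09% higher and 7.95% lower. Leaving out 1 library gave 92 calls (without infested library 1), 100 (without infested library 2 or control library 2), 122 (without control library 3), 148 (without control library 1) and 172 (without infested library 3). Of the 189 calls, 70 held in every one of these 6 fits, all of them higher.

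**Figure D1:**
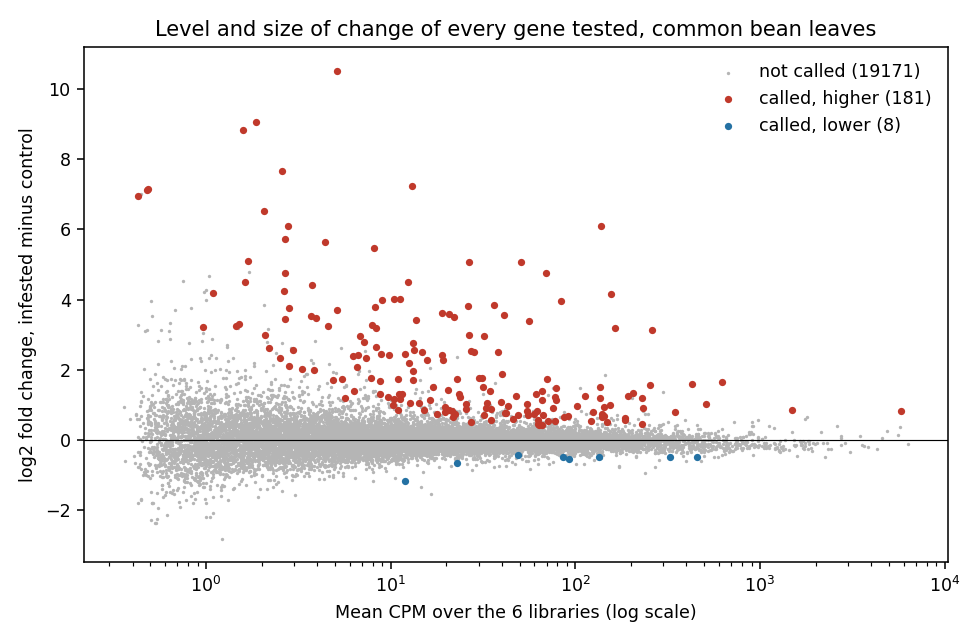
Each point is 1 of the 19360 genes tested, with its mean CPM over the 6 libraries on a log axis and its log2 fold change, infested minus control. The 181 genes called higher (red) are plotted at fitted values, which for the 6 genes with 0 control counts are set by the prior count, the 8 called lower (blue) lie between −1.18 and −0.43, and the other 19171 are in grey, among them 6 scarce genes over 16-fold.

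The changed genes covered the whole range of levels. The share called was 0.357% of the 1120 genes with a mean below 1 CPM, 0.823% of the 6200 genes with a mean of 1 to 10 CPM, 1.01% of the 9970 with 10 to 100 CPM, 1.56% of the 1985 with 100 to 1000 CPM and 2.35% of the 85 above that. The size of the rises ran the other way, with a median log2 fold change of 3.24 at 1 to 10 CPM, 1.24 at 10 to 100 CPM and 1.004 at 100 to 1000 CPM. The median coefficient of variation among the controls fell over the same classes, from 22.9% to 8.67% and 5.68%. All 8 falls had a mean above 10 CPM. The genes called higher together took 0.956% to 1.15% of the counts in the controls and 2.12% to 2.49% in the infested leaves. Among these genes, infested library 1 was the highest infested library for 107 of 181, and control library 3 the lowest control for 87.

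By family, 102 of the 189 called genes carried one, and these were spread over 49 of the 610 families with a tested gene. Genes with a family were called in 1.35% of cases and genes without in 0.738%. Lipoxygenases stood at the head, with 10 genes higher, ahead of 2-oxoglutarate iron oxygenases and cytochrome P450s with 7 each, UDP-glycosyltransferases with 6, and WRKY and basic helix-loop-helix factors with 4 each. The lists described below were chosen with earlier results of these data known.

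**Figure D2:**
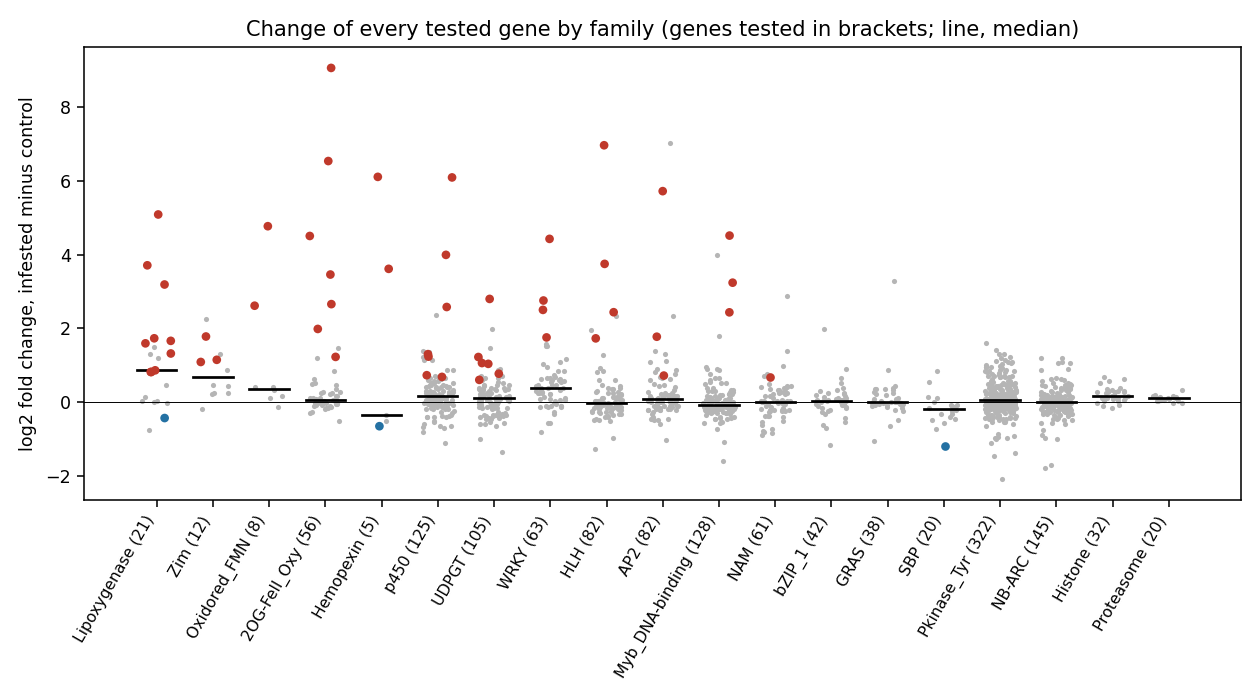
Each point is 1 tested gene, placed by its log2 fold change (infested minus control) in 1 of 19 families, with called genes in red (higher) or blue (lower) and the family's median as a line. The medians of the lipoxygenase (0.86) and Zim (0.67) families lie above 0, and the families without a called gene include bZIP_1, GRAS, NB-ARC, histone and proteasome.

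Lipoxygenases, a family that includes enzymes of jasmonate synthesis, rose more widely than any other family of 10 or more tested genes. Which of its members, if any, act in jasmonate synthesis is not given by the table. Of its 33 genes 21 were tested, and 10 rose and 1 fell, 52.4% called against 0.976% of all genes. The family's median log2 fold change was 0.86, and 18 of 21 values were positive (85.7%, beside 49.4% of all genes tested). A high share of positive values also occurred in families without a call, such as Proteasome (90%) and Histone (87.5%). The 12 genes left out had at most 38 counts over the controls and 27 over the infested leaves, and 3 of them had none. Together the family took 0.581% to 0.725% of all counts in the controls and 1.11% to 1.31% in the infested leaves. The infested and control ranges of that share do not overlap.

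A single gene took most of these counts. PHAVU_005G156900g (chromosome 5, 38277895 to 38281683), the most abundant lipoxygenase per length, had 4093, 4602 and 3909.5 CPM in control libraries 1 to 3 and 7361, 7796 and 7065 CPM in infested libraries 1 to 3. All 3 infested libraries lie far above all 3 controls, and the log2 fold change was below 1 (0.82 ± 0.12, adjusted p = 0.015). It held 63.7% of the summed CPM of the family, not corrected for length, in the controls and 60.5% in infested leaves. Its level per kilobase went from 1456 to 2568 CPM. PHAVU_010G134900g (chromosome 10, 40692610 to 40698355), the next most abundant, had 987, 1251 and 948 CPM in the controls and 2016, 2163 and 1614 CPM in the infested leaves, again without overlap (0.86 ± 0.15, adjusted p = 0.0327). The call of the former ended without control libraries 1, 2 or 3 or infested library 2 (adjusted p up to 0.0878, without control library 1). That of the latter ended without control libraries 1 or 3 or infested libraries 1 or 2 (adjusted p up to 0.143, without infested library 2).

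A larger proportional rise was that of PHAVU_011G056500g (chromosome 11, 4827791 to 4833840). It had 31.7, 21.7 and 44.5 CPM in control libraries 1 to 3 and 278, 291 and 323 CPM in infested libraries 1 to 3. The lowest infested library was several times as high as the highest control, and the log2 fold change was 3.19 ± 0.22 (adjusted p = 0.000162). Per kilobase it went from 10.998 to 100.3 CPM, which still left it below 5 other members. PHAVU_010G128800g (chromosome 10, 39859076 to 39864979) moved less but with tight libraries, at 46.1, 47.1 and 41.7 CPM in the controls and 81.4, 74.3 and 81.8 CPM in the infested leaves (0.82 ± 0.09, adjusted p = 0.0022). The calls of these genes held with any 1 library left out.

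The other rises in the family, described in full after their values were seen, covered a wide range of levels. A pair of neighbouring genes on chromosome 5, PHAVU_005G1568001g and PHAVU_005G1568000g, rose from 301 ± 107 to 952 ± 244 CPM and from 212 ± 79.7 to 640.2 ± 129 CPM, by 1.66 ± 0.28 and 1.59 ± 0.27. The deposited gene lengths are 1528 and 1279 bases, against 2544 to 3315 for the other called members, and in both genes control library 3 and infested library 3 are the lowest of their groups. Whether they are counted from a single transcript was not tested. PHAVU_006G016900g had 30.2, 25.9 and 41.2 CPM in the controls and 111, 64.5 and 147 CPM in the infested leaves, with infested library 2 lowest of its group. PHAVU_004G168400g rose from 13.4 ± 5.19 to 33.4 ± 4.01 CPM (1.32 ± 0.23). PHAVU_010G135700g had 1.23, 0.688 and 0.228 CPM in the controls and 15.7, 5.03 and 7.93 CPM in the infested leaves (3.71 ± 0.57, and 4.37 without control library 1), and PHAVU_006G185300g had 0.256, 0 and 0 CPM in the controls and 5.42, 1.96 and 2.53 CPM in the infested leaves (adjusted p = 0.0354). PHAVU_007G179600g was the only member called lower, at 55.2, 56.9 and 56.1 CPM in the controls and 39.5, 42.2 and 43.02 CPM in the infested leaves (−0.43 ± 0.08, adjusted p = 0.0443). Of the others, PHAVU_010G134800g had ranges that did not overlap but missed the threshold (1.31 ± 0.26, adjusted p = 0.0538), and PHAVU_010G135000g, among the 5 most abundant per kilobase, had 512, 382 and 434 CPM in the controls and 398, 553 and 502 CPM in the infested leaves with overlapping ranges.

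None of those calls held with each library left out in turn. That of PHAVU_005G1568001g ended without control library 2 or infested libraries 1 or 2 (adjusted p up to 0.116, without infested library 2), and that of PHAVU_005G1568000g without control library 2 or infested libraries 1 or 2 (adjusted p up to 0.125, without infested library 2). The call of PHAVU_006G016900g ended without control libraries 1 or 2 or infested library 1 (adjusted p up to 0.117, without control library 2), that of PHAVU_004G168400g without control libraries 1 or 3 or infested libraries 1, 2 or 3 (adjusted p up to 0.137, without infested library 1), that of PHAVU_010G135700g without control library 2 (adjusted p = 0.102) or infested library 1 (adjusted p = 0.0802), that of PHAVU_006G185300g without control libraries 2 or 3 or infested libraries 1 or 2 (adjusted p up to 0.156, without infested library 1) and that of PHAVU_007G179600g with any 1 of the 6 libraries left out (adjusted p up to 0.171, without control library 2). Reads shared between near-identical copies of the family could have been split among them, so single members are uncertain.

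**Figure D3:**
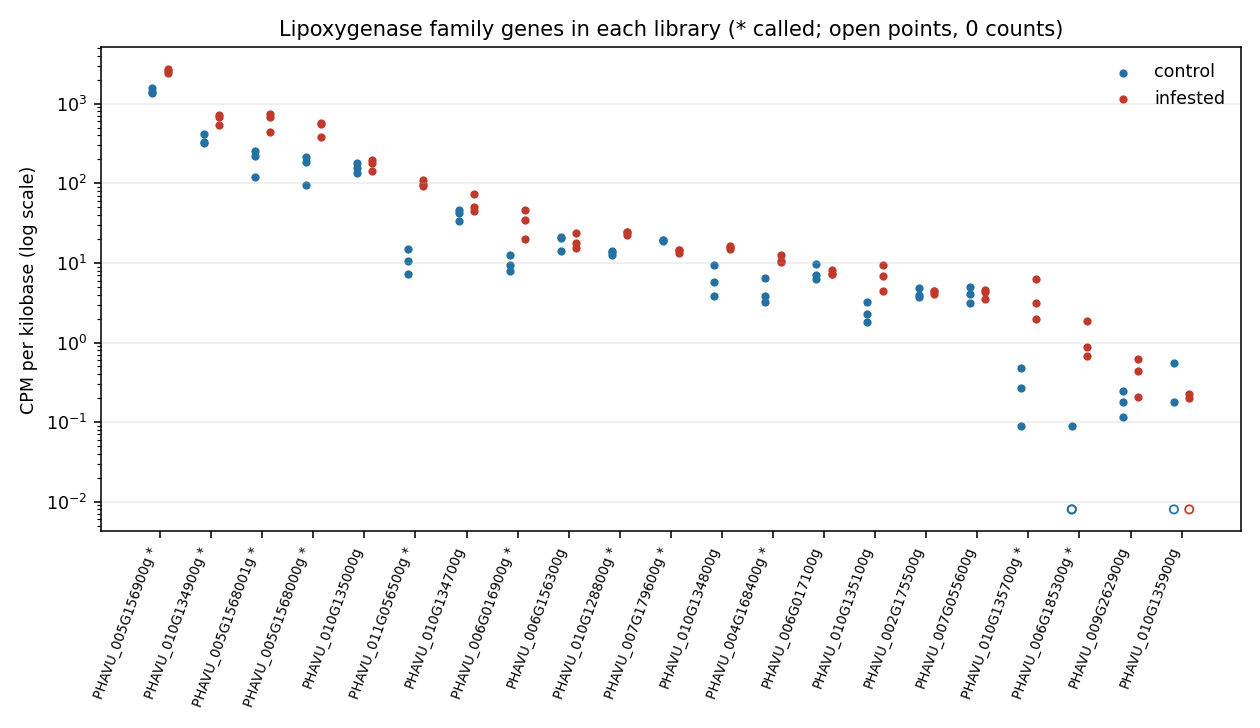
Level of the 21 tested lipoxygenase family genes in each of the 3 control (blue) and 3 infested (red) libraries, in CPM per kilobase of deposited gene length on a log axis, ordered by mean level, with called genes starred and open points for libraries at 0 counts. The starred genes extend from the most abundant member, PHAVU_005G156900g, to members below 10 CPM per kilobase, and PHAVU_007G179600g is the one starred gene whose infested points lie below its controls.

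Enzymes on either side of the lipoxygenase step had fewer calls than the lipoxygenases, and not every step was assessed. Upstream, 1 of 28 tested class 3 lipases rose (3.57%, beside 0.935% of all genes), PHAVU_001G156900g (chromosome 1, 41486145 to 41489703), of the family that holds the lipases known from *Arabidopsis* to release linolenic acid. It had 165, 136 and 81.1 CPM in control libraries 1 to 3 and 416, 433 and 289 CPM in infested libraries 1 to 3. The groups were well apart and control library 3 was the lowest (1.58 ± 0.24, adjusted p = 0.0181). Downstream, no gene matched the names or families chosen for allene oxide enzymes, so those steps were not assessed. Of the old yellow enzyme family (Oxidored_FMN), to which 12-oxophytodienoate reductases belong, 2 of 8 tested genes rose (25%, beside 0.935% of all genes). PHAVU_003G131500g had 0.205, 0.344 and 0 CPM in the controls and 8.097, 2.66 and 4.79 CPM in the infested leaves (4.77 ± 0.73, adjusted p = 0.0168, and a log2 fold change of 5.51 without control library 2), and PHAVU_002G043000g rose from 0.608 ± 0.268 to 3.75 ± 0.964 CPM (2.61 ± 0.44). The 6 others included the most abundant member of the family per kilobase, PHAVU_001G000800g, at 194, 161 and 166 CPM in the controls and 164, 181 and 128 CPM in the infested leaves, with overlapping ranges and a log2 fold change of −0.14 ± 0.13. Whether any of these is the reductase of jasmonate synthesis is not given by the table. A thiolase family gene, PHAVU_003G011600g, of the family that completes each round of beta-oxidation and chosen after its values were seen, had 17.4, 17.2 and 14.6 CPM in the controls and 49.6, 45.7 and 46.4 CPM in the infested leaves, with tight groups far apart (1.53 ± 0.10, adjusted p = 0.000162). The lipase's call ended without control library 2 or infested libraries 1 or 2 (adjusted p up to 0.0945, without infested library 2). The call of PHAVU_003G131500g ended without control libraries 1 or 2 or infested library 1 (adjusted p up to 0.0903, without infested library 1), and that of PHAVU_002G043000g without control libraries 1 or 2 or infested libraries 1, 2 or 3 (adjusted p up to 0.114, without control library 2).

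The Zim family, which holds the JAZ repressors, included rises as well. Of 12 tested genes 3 were called, all higher (25.0%, beside 0.935% of all genes called higher). The median log2 fold change was 0.67 and 11 of 12 values were positive (91.7%, beside 49.4% of all genes tested). PHAVU_002G002000g (chromosome 2, 206742 to 208210) had 13.98, 14.8 and 13.7 CPM in control libraries 1 to 3 and 50.8, 51.1 and 43.8 CPM in infested libraries 1 to 3. The infested libraries were all far above the controls (1.78 ± 0.10, adjusted p = 6.63e-05). PHAVU_010G127400g (chromosome 10, 39705449 to 39707862) had 39.3, 39.6 and 43.8 CPM in the controls and 96.8, 83.7 and 91.2 CPM in the infested leaves (1.15 ± 0.09, adjusted p = 0.000304), and PHAVU_009G225300g rose from 25.4 ± 3.06 to 54.1 ± 6.49 CPM (1.09 ± 0.12, adjusted p = 0.00305). The 3 calls held with any 1 library left out. The most abundant member per kilobase, PHAVU_009G221800g, had 90.7, 93.2 and 75.2 CPM in the controls and 132, 115 and 109 CPM in the infested leaves, without overlap, but did not pass (0.46 ± 0.11, adjusted p = 0.121), and the 1 member with a negative value was PHAVU_007G061400g (−0.18 ± 0.11).

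Alpha-dioxygenases, which oxygenate fatty acids at the alpha carbon by a route separate from lipoxygenases, belong to the An_peroxidase family, of which 1 of 2 genes was tested. PHAVU_004G018900g (chromosome 4, 1950512 to 1956987) had 0.717, 2.92 and 0.969 CPM in control libraries 1 to 3 and 77.6, 36.4 and 40.5 CPM in infested libraries 1 to 3. Every infested library was far above every control (5.08 ± 0.46, adjusted p = 0.000827), with control library 2 the highest control. Without that library the log2 fold change was 5.93.

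Hemopexin family genes included 1 of the largest rises. The domain is named after an animal haem-binding protein and in legumes is known from albumins stored in seeds. PHAVU_007G276200g (chromosome 7, 51369151 to 51370011) had 4.46, 5.39 and 1.99 CPM in control libraries 1 to 3 and 342, 277 and 200.2 CPM in infested libraries 1 to 3. Every infested library was far above every control (6.11 ± 0.33, adjusted p = 4.74e-05). Its neighbour PHAVU_007G276300g had 6.198, 1.26 and 0.912 CPM in the controls and 44.7, 38.7 and 21.5 CPM in the infested leaves (3.61 ± 0.57), while PHAVU_008G252000g fell, at 26.1, 25.7 and 31.97 CPM in the controls and 19.2, 16.4 and 17.7 CPM in the infested leaves (−0.65 ± 0.12, adjusted p = 0.0487). Of 9 family genes 5 were tested, and these were the 3 called. The median of the 5 was −0.34 on the log2 scale. The call of PHAVU_007G276300g ended without control library 2 or infested libraries 1 or 2 (adjusted p up to 0.0954, without control library 2), and its log2 fold change was 4.999 without control library 1. That of PHAVU_008G252000g ended with any 1 of the 6 libraries left out (adjusted p up to 0.193, without infested library 2).

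Known defence proteins with a product name were few in the table, and 3 of the called genes have one. Kunitz inhibitors act on digestive proteases of animals that eat the leaf, and the gene with the product name Kunitz trypsin inhibitor 2 (PHAVU_004G138500g, chromosome 4, 41714841 to 41715811) had 6.86, 9.06 and 5.93 CPM in control libraries 1 to 3 and 66.5, 53.7 and 49.3 CPM in infested libraries 1 to 3. The groups are widely apart (2.96 ± 0.18, adjusted p = 6.63e-05). PGIP1, a polygalacturonase-inhibiting protein of the cell wall (PHAVU_009G1804000g, chromosome 9, 26521123 to 26521909), had 2.77, 2.81 and 2.62 CPM in the controls and 14.7, 15.02 and 15.2 CPM in the infested leaves, with the libraries of each group nearly equal (2.45 ± 0.17, adjusted p = 0.000162). The product called hevein-like preproprotein is chitin-binding, and its gene (PHAVU_006G102200g, chromosome 6, 21898967 to 21901131) had 179.7, 115 and 126 CPM in the controls and 336, 313 and 313 CPM in the infested leaves (1.19 ± 0.15, adjusted p = 0.00682). The calls of these genes held with any 1 library left out. The inhibitor is the only gene that matched the words of the protease inhibitor list. The 1 gene of the Serpin family, which also holds protease inhibitors, was outside the list and was not called (−0.21).

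The list of chitinases, glucanases and other pathogenesis-related proteins had 3 of 52 tested genes higher (5.77%, beside 0.935% of all genes) and 0 lower, with a median log2 fold change of 0.12. Beside the hevein-like gene these were a thaumatin family gene and a family 17 glucanase. The thaumatin gene PHAVU_002G155500g (chromosome 2, 29701039 to 29702099), of the family of PR-5 proteins, had 391, 346 and 269.7 CPM in control libraries 1 to 3 and 666, 659 and 714 CPM in infested libraries 1 to 3. The lowest infested library was well above the highest control (1.02 ± 0.14, adjusted p = 0.00785). The glucanase PHAVU_008G010600g had 24.7, 26.1 and 22.1 CPM in the controls and 38.03, 38.8 and 43.1 CPM in the infested leaves, a smaller difference (0.72 ± 0.10, adjusted p = 0.0126). The thaumatin call ended without control library 2 (adjusted p = 0.0504), and the glucanase call without infested library 2 (adjusted p = 0.0534).

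**Figure D4:**
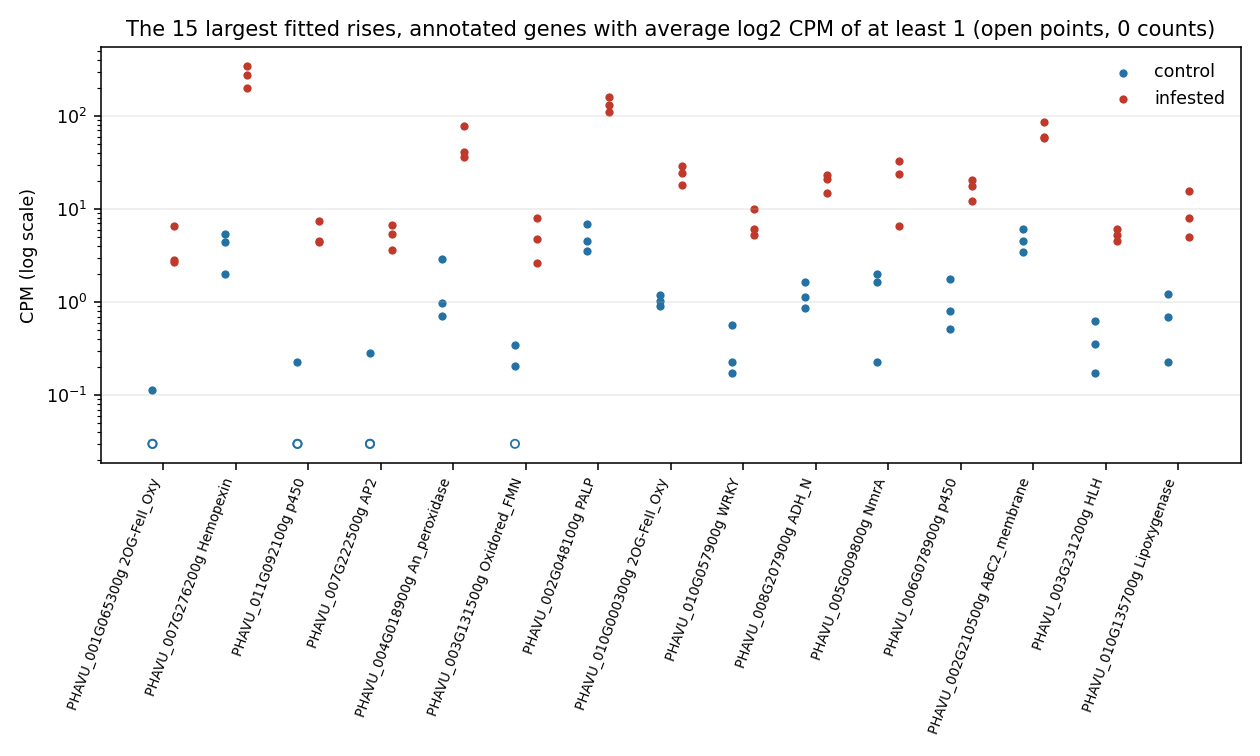
Level in each library of the 15 annotated genes with the largest log2 fold changes among called genes that average 1 or more on the log2 CPM scale and whose ranges do not overlap, in CPM on a log axis, with controls in blue, infested libraries in red and open points for libraries at 0 counts. Every red point lies above every blue point of its gene, and the hemopexin gene PHAVU_007G276200g reaches 342 CPM in infested library 1.

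Among annotated genes that average 1 or more on the log2 CPM scale, the 15 largest fitted rises were mostly of enzyme families. Scarcer annotated genes such as PHAVU_002G232800g, described below, had larger fitted values and fall outside that limit. A gene of the PALP family, PHAVU_002G048100g (chromosome 2, 4480988 to 4483345), had 3.53, 6.88 and 4.56 CPM in control libraries 1 to 3 and 159, 110.4 and 132 CPM in infested libraries 1 to 3. The family holds pyridoxal-phosphate enzymes such as cysteine synthase, the beta chain of tryptophan synthase and threonine deaminase, and the table does not say which of them this gene is. Every infested library was far above every control (4.75 ± 0.23, adjusted p = 3.88e-05), and the other 17 tested PALP genes did not pass, with a family median of 0.15. The ABC2_membrane gene PHAVU_002G210500g (chromosome 2, 37088384 to 37092305), of a family of ABC transporters, had 3.48, 6.13 and 4.502 CPM in the controls and 86.2, 59.001 and 57.7 CPM in the infested leaves (3.85 ± 0.23, adjusted p = 6.63e-05). The ADH_N gene PHAVU_008G207900g, of the zinc-binding alcohol dehydrogenases, rose from 1.21 ± 0.411 to 19.6 ± 4.37 CPM (4.01 ± 0.28). These calls held with any 1 library left out. An NmrA family gene, PHAVU_005G009800g, of the group that holds isoflavone reductase-like enzymes, had 1.998, 0.229 and 1.65 CPM in the controls and 32.8, 6.65 and 23.8 CPM in the infested leaves, with infested library 2 far below the other infested libraries (4.005 ± 0.67, adjusted p = 0.027). Its call ended without control libraries 1, 2 or 3 or infested library 1 (adjusted p up to 0.114, without infested library 1).

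Among 2-oxoglutarate iron oxygenases, a large family whose members modify hormones, flavonoids and alkaloids and include enzymes that inactivate jasmonic acid in *Arabidopsis*, 7 of 56 tested genes rose (12.5%) and none fell, while the family median stayed at 0.07. PHAVU_010G000300g (chromosome 10, 176098 to 179443) had 1.02, 0.917 and 1.197 CPM in control libraries 1 to 3 and 28.9, 24.6 and 18.3 CPM in infested libraries 1 to 3. The controls lie close together, far below every infested library (4.51 ± 0.24, adjusted p = 4.74e-05). PHAVU_002G232800g (chromosome 2, 39881364 to 39885757) had no count in any control and 4.58, 3.47 and 3.08 CPM in the infested leaves, at least 67.4-fold higher against a floor of 3 counts over the control group (adjusted p = 0.00322). PHAVU_001G065300g had 0, 0.115 and 0 CPM in the controls and 6.65, 2.83 and 2.699 CPM in the infested leaves, a ratio of 111 with a 95% interval of 30.3 to 921 that covers counting error only, from 2 control counts, both in control library 2 (adjusted p = 0.0071). Without that library its fitted log2 fold change was 9.20. The calls of these 3 genes held with any 1 library left out.

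Cytochrome P450s, oxygenases of hormone and specialized metabolism, had 7 of 125 tested genes higher (5.60%, beside 0.935% of all genes) and none lower. Their median was 0.15, with 80 positive values (64%, beside 49.4% of all genes tested). The rises spanned a wide range of sizes. PHAVU_011G092100g (chromosome 11, 9240332 to 9242012) had 0, 0.229 and 0 CPM in control libraries 1 to 3 and 7.48, 4.57 and 4.46 CPM in infested libraries 1 to 3. All its control counts came from control library 2, and the log2 fold change was 6.09 ± 0.76 with all libraries (adjusted p = 0.00552), 9.64 without control library 2 and 5.50 without control library 1. With the other controls at 0 the former depends on the prior count of the fit. PHAVU_006G078900g rose from 1.04 ± 0.671 to 16.9 ± 4.28 CPM (3.99 ± 0.39, adjusted p = 0.00128), and by 4.67 without control library 1. PHAVU_010G022700g rose from 3.83 ± 1.600 to 22.9 ± 5.55 CPM (2.58 ± 0.31). PHAVU_001G017800g had tight groups, at 71.1, 72.8 and 66.7 CPM in the controls and 112, 109.9 and 117 CPM in the infested leaves (0.68 ± 0.08, adjusted p = 0.0033). These 4 calls held with any 1 library left out.

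UDP-glycosyltransferases, which attach sugars to hormones and metabolites, had 6 of 105 tested genes higher (5.71%, beside 0.935% of all genes). In glycosyltransferase family 8, 0 of 35 genes were called. With 0.976% of all genes called, a family of that size would hold few calls or none. PHAVU_002G075200g rose from 1.79 ± 0.648 to 12.5 ± 1.41 CPM (2.80 ± 0.28, adjusted p = 0.00135) and PHAVU_004G035900g from 16.8 ± 2.66 to 34.5 ± 2.75 CPM (1.04 ± 0.13). PHAVU_010G101800g had 51.9, 48.8 and 38.2 CPM in the controls and 138, 89.2 and 97.3 CPM in the infested leaves, the infested libraries all above the controls (1.22 ± 0.17, adjusted p = 0.0114), a call that ended without control library 2 (adjusted p = 0.0611). The phenylpropanoid and flavonoid list had 3 of 90 higher (3.33%, beside 0.935% of all genes) and a median of 0.03. Of the 90, 37 are AMP-binding and 35 Epimerase genes, broad families not limited to this metabolism. The 8 tested genes of the chalcone and stilbene synthase family had a median of 2.48, with 6 positive values (75%, beside 49.4% of all genes tested) and 1 call. Beside the NmrA gene described above, an AMP-binding gene, PHAVU_006G086100g, of the family of acyl-CoA and 4-coumarate ligases, rose from 5.87 ± 1.93 to 47.2 ± 11.04 CPM (3.01 ± 0.25, adjusted p = 0.000466). A chalcone and stilbene synthase family gene, PHAVU_002G038700g, had 0 counts in the controls and 0.614, 0.867 and 1.43 CPM in the infested leaves, at least 17.7-fold higher against the floor (adjusted p = 0.0486). That call ended with any 1 of the 6 libraries left out (adjusted p up to 0.166, without infested library 2). The glutathione transferase PHAVU_008G113700g, 1 of 29 tested and of a family that conjugates xenobiotics, had 13.2, 7.396 and 5.58 CPM in the controls and 29.6, 24.04 and 21.7 CPM in the infested leaves (1.52 ± 0.28), and its call ended without control libraries 2 or 3 or infested libraries 1 or 2 (adjusted p up to 0.19, without control library 2).

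Transcription factors with a call belonged mostly to the WRKY, basic helix-loop-helix, AP2/ERF and MYB families. These are also large, with 63, 83, 82 and 128 tested genes in that order, and of all genes tested 0.935% were called higher. In the WRKY family, whose members bind W-box elements of defence gene promoters, there were 4 of 63 tested genes called higher (6.35%) and none lower. The median was 0.38, with 49 positive values (77.8%, beside 49.4% of all genes tested). PHAVU_010G057900g (chromosome 10, 9634279 to 9635768) had 0.564, 0.229 and 0.171 CPM in control libraries 1 to 3 and 10.1, 5.26 and 6.17 CPM in infested libraries 1 to 3. It was below 1 CPM in every control and above 5 CPM in every infested library (4.43 ± 0.48, adjusted p = 0.00232), and without control library 1 the log2 fold change was 5.12. PHAVU_001G042100g (chromosome 1, 4312182 to 4314073) had 11.1, 9.46 and 4.79 CPM in the controls and 45.3, 54.1 and 44.4 CPM in the infested leaves (2.50 ± 0.25, adjusted p = 0.00128). PHAVU_008G081800g had 12.8, 9.804 and 8.83 CPM in the controls and 26.8, 28.6 and 50.7 CPM in the infested leaves, with infested library 3 the highest (1.75 ± 0.25). PHAVU_001G042200g, the neighbour of PHAVU_001G042100g, a gene picked out once values were known, rose from 3.41 ± 2.48 to 23.2 ± 2.29 CPM (2.76 ± 0.50). The call of PHAVU_008G081800g ended without control library 2 (adjusted p = 0.0787), and that of PHAVU_001G042200g without control libraries 1 or 2 or infested libraries 1, 2 or 3 (adjusted p up to 0.137, without infested library 1). The other 2 held.

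Basic helix-loop-helix factors, the class that holds the jasmonate regulator MYC2 of *Arabidopsis*, had 4 of 83 tested genes higher (4.82%, beside 0.935% of all genes) with a median of −0.03. PHAVU_003G231200g (chromosome 3, 45237056 to 45239851) had 0.359, 0.172 and 0.627 CPM in control libraries 1 to 3 and 6.03, 5.201 and 4.57 CPM in infested libraries 1 to 3, and PHAVU_003G1408001g had 2.203, 2.18 and 1.82 CPM in the controls and 12.1, 9.88 and 11.8 CPM in the infested leaves. Both had every infested library far above every control, with log2 fold changes of 3.75 ± 0.45 (adjusted p = 0.00413) and 2.44 ± 0.21 (adjusted p = 0.000595). PHAVU_005G181300g had 3.07, 2.47 and 1.99 CPM in the controls and 9.83, 9.19 and 6.06 CPM in the infested leaves (1.73 ± 0.28), and lost its call without control libraries 2 or 3 or infested libraries 1 or 2 (adjusted p up to 0.116, without infested library 2). The fourth, PHAVU_007G243000g, chosen after its values were seen, had no control count and was at least 15.7-fold higher, and its call ended without the filter on low counts (adjusted p = 0.0766) or with any 1 of the 6 libraries left out (adjusted p up to 0.178, without infested library 2).

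AP2/ERF factors, which include ethylene-responsive regulators, had 3 of 82 higher (3.66%, beside 0.935% of all genes) and a median of 0.07. PHAVU_007G222500g (chromosome 7, 46214380 to 46215168) had 0, 0.287 and 0 CPM in control libraries 1 to 3 and 5.36, 6.703 and 3.64 CPM in infested libraries 1 to 3 (5.72 ± 0.79, adjusted p = 0.00948). All its control counts were in control library 2, and the log2 fold change was 9.57 without that library, a value set by the prior count, and 5.13 without control library 1. PHAVU_007G127800g had 39.7, 46.2 and 39.5 CPM in the controls and 62.2, 74.1 and 70.2 CPM in the infested leaves, a smaller difference with tight groups (0.72 ± 0.10), and PHAVU_002G055700g rose from 3.52 ± 0.782 to 12.1 ± 5.63 CPM (1.77 ± 0.33, adjusted p = 0.0467). The 3 calls ended without infested library 2 (adjusted p = 0.0601), without control library 1 (adjusted p = 0.0515) or infested library 2 (adjusted p = 0.0625) and with any 1 of the 6 libraries left out (adjusted p up to 0.149, without control library 3), in that order. A further AP2 gene, PHAVU_005G126600g, chosen after its values were seen, had no control count and 0.782, 0.578 and 1.32 CPM in the infested leaves but missed the threshold (adjusted p = 0.0539).

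MYB factors had 3 of 128 higher (2.34%, beside 0.935% of all genes) and a median of −0.08. Of these genes, PHAVU_011G109600g and PHAVU_011G109700g, are next to each other on chromosome 11. The former had 0.0512, 0.287 and 0.0570 CPM in the controls and 2.57, 1.91 and 4.85 CPM in the infested leaves. The latter had 0.307, 0.172 and 0.342 CPM in the controls and 3.46, 1.68 and 2.81 CPM in the infested leaves. Both were below 1 CPM in every control and above every control in each infested library. Their log2 fold changes were 4.52 ± 0.70 and 3.24 ± 0.53, the former 5.68 without control library 2. The third, PHAVU_002G317000g, rose from 3.04 ± 2.21 to 16.6 ± 3.05 CPM (2.43 ± 0.41), and by 3.23 without control library 1. The calls ended without control libraries 1 or 3 or infested libraries 1 or 3 (adjusted p up to 0.0693, without control library 1), without control libraries 1, 2 or 3 or infested libraries 1 or 3 (adjusted p up to 0.121, without infested library 1) and without control libraries 2 or 3 or infested libraries 1 or 2 (adjusted p up to 0.121, without infested library 1), in that order. NAC factors had 1 of 61 higher (1.64%, beside 0.935% of all genes), PHAVU_004G075500g, at 18.3, 14.6 and 17.5 CPM in the controls and 29.5, 24.2 and 26.5 CPM in the infested leaves (0.67 ± 0.13, adjusted p = 0.0487), a call that ended with any 1 of the 6 libraries left out (adjusted p up to 0.183, without infested library 1). No gene was called among 54 bZIP factors (median 0.01), 53 homeobox genes (0.01), 38 GRAS genes (−0.00112), 42 auxin response genes (−0.10) or 65 genes of the zinc finger list (−0.07), at highest log2 fold changes of 1.99, 0.55, 3.29, 1.13 and 0.79. The zinc finger list holds only the zf-Dof, GATA and zf-B_box families.

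Amino acid and ABC transporter genes were among those that rose. Of 235 tested genes on the transporter list 5 rose (2.13%, beside 0.935% of all genes) and none fell, with a median of 0.0026. The amino acid permease family gene PHAVU_008G040900g had 0.717, 1.15 and 0.741 CPM in the controls and 10.2, 8.26 and 6.499 CPM in the infested leaves. Another, PHAVU_011G025100g, had 5.53, 6.88 and 3.704 CPM in the controls and 20.6, 23.3 and 19.6 CPM in the infested leaves. Their infested libraries all exceeded their controls, with log2 fold changes of 3.25 ± 0.32 (adjusted p = 0.00128) and 1.98 ± 0.21 (adjusted p = 0.00232). A second ABC2_membrane gene, PHAVU_002G210400g, the neighbour of PHAVU_002G210500g, also picked out once values were known, rose from 36.3 ± 2.31 to 73.5 ± 12.1 CPM (1.02 ± 0.12). These 3 calls held with any 1 library left out. Sugar transporters had 0 of 55 called, which does not set them apart where 0.976% of all genes were called.

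Lipases and other acyl hydrolases beyond the class 3 lipase had 3 further rises, for 4 of 141 tested (2.84%, beside 0.935% of all genes) with a median of 0.03. A GDSL lipase, PHAVU_002G106300g, rose from 5.42 ± 1.69 to 26.2 ± 4.27 CPM (2.27 ± 0.22, adjusted p = 0.00128) and an alpha/beta hydrolase, PHAVU_006G088500g, had 42.4, 42.6 and 48.1 CPM in the controls and 71.3, 75.5 and 77.2 CPM in the infested leaves, with tight groups (0.75 ± 0.09, adjusted p = 0.00352). Both calls held with any 1 library left out. Subtilisin-like proteases (Peptidase_S8) had 2 of 44 higher.

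The kinase list holds every gene of the Pkinase, Pkinase_Tyr, LRRNT_2 and B_lectin families, so it includes kinases that are not receptors. Of its 968 tested genes 2 rose (0.207%, beside 0.976% of all genes called), with a median of 0.03. These were the Pkinase genes PHAVU_006G198200g, from 6.14 ± 2.42 to 20.3 ± 2.05 CPM (1.72 ± 0.27), and PHAVU_005G100400g, from 8.21 ± 1.46 to 17.2 ± 0.476 CPM (1.06 ± 0.16). Their calls ended without control library 2 or infested libraries 1 or 2 (adjusted p up to 0.0956, without infested library 1) and without control library 1 or infested libraries 1 or 2 (adjusted p up to 0.0853, without infested library 1). The NLR list, named for intracellular immune receptors, had 0 of 184 called, beside 0.976% of all genes, with a median of 0.03 and log2 fold changes from −1.79 to 1.25. Of these genes 145 were of the NB-ARC family (log2 fold changes up to 1.21) and 39 of the TIR family. Whether the TIR family genes encode such receptors is not given by the table. The calcium sensor list had 0 of 64 called (0.04), although 1 C2-domain gene stood at 4.22 without passing. Of its tested genes 60 are of the C2 family and 3 of the efhand family, so it says little about EF-hand sensors.

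On the heat shock list 2 of 137 tested genes rose (1.46%, beside 0.935% of all genes), with a median of −0.03. Most were of the DnaJ (68), HSF_DNA-bind (25), DnaJ_C (19) and HSP70 (19) families, so the list says little about other heat shock proteins. The HSP70 gene PHAVU_002G301400g had 105, 97.6 and 95.5 CPM in the controls and 143, 141 and 152 CPM in the infested leaves (0.55 ± 0.08) and the DnaJ_C gene PHAVU_001G211800g 26.1, 32.05 and 25.7 CPM in the controls and 40.3, 43.2 and 41.1 CPM in the infested leaves (0.57 ± 0.11), and their calls ended without control libraries 2 or 3 or infested library 2 (adjusted p up to 0.0856, without control library 2) and without control libraries 1 or 3 or infested libraries 1, 2 or 3 (adjusted p up to 0.184, without infested library 2). Photosynthesis genes had 0 of 22 called, with a median of −0.14 and values from −0.74 to 0.72. Only 27 genes of the table carry a name or family of that list, so it covers a small part of the photosynthetic apparatus. The histone list had 0 of 38 called (median 0.12), ribosomal proteins 0 of 30 (0.06), proteasome subunits 0 of 21 (0.11), class III peroxidases 0 of 6 (0.27) and cell wall genes 0 of 6 (−0.05). Of the tested histone list, 32 genes were of the Histone family (median 0.17). Values were positive for 76.3% of the histone list and 90.5% of the proteasome list, beside 49.4% of all genes tested. The only gene matched by the terpene synthesis list was not tested, and the PLP enzyme list had the PALP gene as its 1 call among 58. All these lists hold only genes with a matching name or family, and 17956 genes of the table have neither. With 0.976% of all genes called, lists this short would hold few calls or none, and a gene that misses the threshold is not thereby shown to be unchanged.

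The 8 falls were small, and the ranges of the groups did not overlap in any of them. The largest was an SBP gene, of a family of plant-specific factors known from *Arabidopsis* to act in phase change and leaf growth. PHAVU_008G157100g (chromosome 8, 39631062 to 39637027) had 16.2, 20.01 and 13.8 CPM in control libraries 1 to 3 and 7.37, 7.69 and 7.05 CPM in infested libraries 1 to 3 (−1.18 ± 0.17, adjusted p = 0.0137). It was the only call among 20 tested SBP genes (5%, with 0.0413% of all genes called lower). Of the 20, 15 had values below 0, which left 25% positive beside 49.4% of all genes tested, and the median was −0.19. A pair of genes with CCCH zinc fingers, a motif of RNA-binding proteins, fell too. They were 2 of 25 tested in that family (8%, with 0.0413% of all genes called lower). PHAVU_004G173600g had 522, 533 and 541 CPM in the controls and 369, 409 and 372 CPM in the infested leaves (−0.47 ± 0.09) and PHAVU_002G306100g 156, 155 and 159 CPM in the controls and 103, 119 and 113 CPM in the infested leaves (−0.49 ± 0.08). The gene of the major facilitator family (MFS_1), outside the transporter list, PHAVU_008G061900g fell from 379.6 ± 12.3 to 272 ± 16.8 CPM (−0.48 ± 0.09), and the Exo_endo_phos gene PHAVU_007G084100g from 101 ± 3.34 to 71.4 ± 2.52 CPM (−0.49 ± 0.08).

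None of the 8 calls lower held in all fits with 1 library left out. That of the SBP gene ended without control library 2 or infested libraries 1 or 2 (adjusted p up to 0.0675, without infested library 1), and that of PHAVU_007G084100g without control libraries 1, 2 or 3 or infested library 2 (adjusted p up to 0.114, without infested library 2). Those of PHAVU_004G173600g, PHAVU_002G306100g and PHAVU_008G061900g ended with any 1 of the 6 libraries left out, at adjusted p up to 0.185, 0.122 and 0.148 in that order. Without infested library 2, 0 genes were called lower.

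Among the 189 changed genes, 84 had neither family nor product name, 83 of them higher. The largest fitted rise was one of these, PHAVU_011G143300g (chromosome 11, 35148747 to 35153770), with no count in any control and 10.5, 9.59 and 10.5 CPM in the infested leaves, at least 185-fold higher (adjusted p = 0.000168). PHAVU_008G1992000g had no control count either and 4.24, 2.66 and 2.59 CPM, at least 57.5-fold higher. Both calls held with any 1 library left out. A further unannotated gene had 1 control count against 275 infested counts, a ratio of 281 with a 95% counting interval of 50 to 11100, so the order of these rises is not established. PHAVU_002G059000g was the unannotated gene among the falls, at 117, 106 and 104 CPM in the controls and 82.5, 68.4 and 76.4 CPM in the infested leaves (−0.53 ± 0.09), a call that ended with any 1 of the 6 libraries left out (adjusted p up to 0.159, without infested library 2).

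Called genes often lay close together on the chromosomes. Counting all genes of the table in order, 33 of the 189 (17.5%) had a called gene immediately beside them and 51 (27.0%) had one within 5 genes, against 1.24% and 5.45% of all genes tested. The 51 genes formed 21 groups, 14 of 2 genes and 7 of 3 or more. Within each group all genes moved up, but so did 181 of the 189 called genes, so the shared direction does not set the groups apart. The largest was a run of 5 unannotated genes over 71.0 kb of chromosome 9 (17415736 to 17486785), with log2 fold changes from 1.21 to 4.18. A group of 3 lipoxygenases lay within 24.9 kb of chromosome 5 and a group of 3 genes, 2 of them hemopexin genes, within 20.5 kb of chromosome 7. The pairs included WRKY genes on chromosome 1, ABC2_membrane genes on chromosome 2 and MYB genes on chromosome 11. The lipoxygenase PHAVU_010G128800g and a P450 gene were neighbours on chromosome 10 as well. Neighbouring copies can share reads, and neighbouring genes are not independent. By chromosome, the share called ran from 0.649% on chromosome 1 to 1.54% on chromosome 4.

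**Figure D5:**
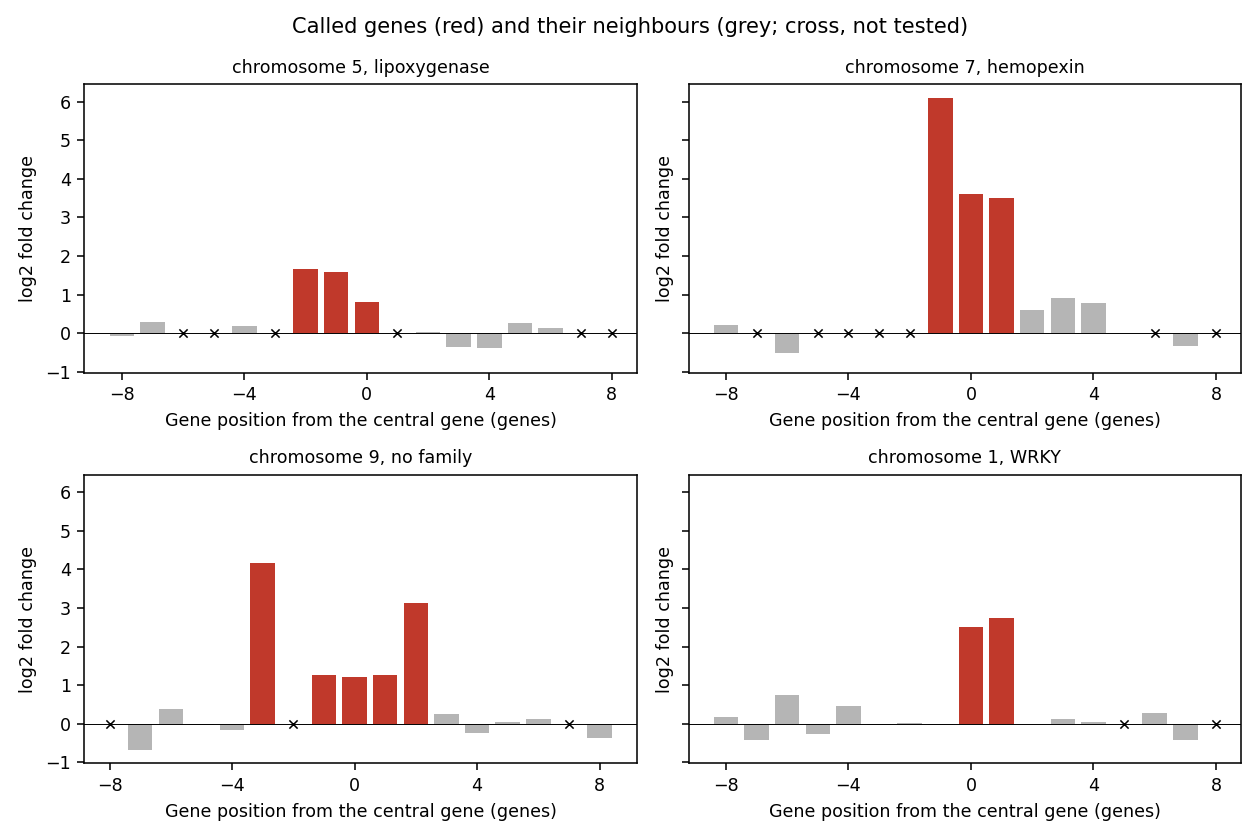
Log2 fold change (infested minus control) of the genes within 8 positions of a central gene in each of 4 regions chosen after their values were seen, in table order along the chromosome, with called genes in red, other tested genes in grey and crosses for genes not tested. In each region the called genes sit side by side or 1 gene apart, and no tested neighbour passes a log2 fold change of 1.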

How the data were processed

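RNA-seq libraries (NEBNext Ultra) came from total RNA purified with TRIzol and RNeasy, per the labels' protocols. Tools listed in the submitters' processing notes are HISAT2, featureCounts and DESeq2, without versions or roles. Genome build, annotation release and strand setting: not given in the sources used here. Coordinates therefore stand as deposited, with no build named, and antisense or overlapping genes cannot be told apart. The deposited values are raw counts, whole numbers per gene and library, and carry no normalization.

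Counts of 3 control and 3 infested libraries, mapped by title, were filtered with filterByExpr, scaled by TMM and tested with edgeR 4.0.16 (R 4.3.3; quasi-likelihood F test) with Benjamini-Hochberg adjustment over all 19360 genes, at 0.05. The standard error is the log2 fold change divided by the square root of F. A gene with no control count has a lower bound against 3 counts over the control group (0.055 CPM), which covers counting error only. Levels are compared between genes only per kilobase of deposited length. Alternatives were DESeq2 1.42.0, median-ratio and upper-quartile scaling, no filter, a replicate block and leaving out each library. The code was tested on simulated data with known fold changes.

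The members, gene lists and rules were chosen with earlier results of these data known. The genes named are called genes with a product name, the 15 largest rises and up to 10 falls among annotated genes that average 1 or more on the log2 CPM scale with separate ranges, the 3 smallest p of each list, the 5 highest levels and up to 2 unannotated genes each way. Any other gene named was chosen after its values were seen. Lists rest on the deposited family and product names. No deposited ID matched the RefSeq gene table supplied, and no sequence was used. The labels give no batch or date.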

Additional observations from a re-analysis of the deposited data

How the results depend on the processing

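Median-ratio and upper-quartile scaling gave 188 and 186 changed genes against 189, and each kept nearly all of the same genes (188 and 184 shared). Without the filter on low counts 227 genes changed and the genes lower went from 8 to 13. DESeq2 called 455 genes (390 higher, 65 lower, 233 at least 2-fold) and all 189 were among them. The cause of these differences was not tested. A replicate block called 539 genes (405 higher, 134 lower, 207 at least 2-fold), again with all 189. Deviations of libraries with the same number correlated at 0.138, 0.0852 and 0.206, and each library correlated best with its own number. The main fit did not pair libraries by number. Whether equal numbers mark a shared batch is not given by the labels and was not tested. Leaving out 1 library gave 92 to 172 changed genes, 91 to 158 higher, 0 to 14 lower and 72 to 121 at least 2-fold. In these fits 33 of the 68 genes named by rule kept their call each time, and none of the 68 reversed under any alternative. The DnaJ_C gene PHAVU_001G211800g missed the threshold under upper-quartile scaling (adjusted p = 0.0571), and PHAVU_002G038700g (adjusted p = 0.0651) and PHAVU_007G243000g (adjusted p = 0.0766) without the filter. With 3 libraries a group, genes below 1 CPM were called least often (0.357%).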
